A study of Mus musculus with 16 samples.

Results

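The genes described here encode the signals by which neurons and their neighbours feed, place and restrain microglia. They were a list of 8 chosen with earlier results of these data known: Il34, Csf1, Tgfb1, Tgfb2, Cx3cl1, Cd200, Cd47 and Sirpa. Each was read by symbol from a table of raw counts that holds 16934 genes. All 8 were in the table, 7 passed the filter on low counts, and Tgfb1 had no count in any library. Primary cortical neurons of C57BL/6 mouse embryos were grown for 14 days, and some were then loaded over 16 h with 0.1 µM fibrils of α-synuclein, a protein of presynaptic terminals whose aggregates mark Parkinson's disease. The fibrils carried the fluorescent label Atto488, and the neurons were washed in PBS after loading. Neurons were then kept alone or cultured with microglia for 6 h, and the series title places the work among studies of tunneling nanotubes between microglia and neurons. With 4 libraries each, this gave untreated and loaded neurons kept alone, and untreated and loaded co-cultures (16 libraries in all).

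Microglia depend on the receptor CSF1R, which is bound by IL-34, made mostly by neurons in the cortex, and by CSF1, made by glia and some neurons. Transforming growth factor-beta ligands maintain the resident microglial identity, and the chemokine fractalkine, encoded by Cx3cl1 and displayed by neurons, binds CX3CR1 on microglia. CD200 and CD47 are restraining surface proteins: CD200 binds a receptor on myeloid cells, and CD47 binds SIRPα, a receptor found on both microglia and neurons, to limit engulfment. All values below are of messenger RNA and say nothing of protein.

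Libraries held 6511516 to 13986374 counts each, taken at the 3′ ends of transcripts. The ribosomal RNA entry Rn45s took 9.35% to 26.8% of these counts, the most in replicate 1 of untreated neurons alone. Because the kit is designed to give 1 read per transcript, levels are in CPM, counts scaled to a common library total, and are not divided by gene length. The labels do not say whether libraries of a group came from separate cultures, nor how neurons were parted from microglia before lysis. The p-values therefore rest on the spread between libraries alone, and part of it may be technical. The spread was wide: the common biological coefficient of variation was 1.17, and 41 to 666 genes per library had no count where the other libraries averaged at least 100. Libraries also differed in cell type content. The microglial marker list, 19 of whose 20 genes were in the table, summed to 764 CPM in untreated co-culture 1 and 1510 CPM in loaded co-culture 1, against 15.3 to 90.3 CPM in the other 14 libraries, which included 6 co-cultures. The defining markers Tmem119 and P2ry12 were at 0 in all 16, those 2 co-cultures included, and whether the counting could assign reads to these genes is not known, so their zeros say nothing of cell content. The neuronal list summed to 8249 to 19552 CPM in untreated neurons alone, 3481 to 18115 in loaded neurons alone, 3092 to 13857 in untreated co-cultures and 2829 to 6147 in loaded co-cultures, with at least 20 of its 22 genes counted in every library. The list of 15 excitatory neuron genes summed to 6539 to 9404 CPM in untreated neurons alone, 1564 to 7793 in loaded neurons alone, 347 to 2416 in untreated co-cultures and 312 to 1127 in loaded co-cultures (means of 7979, 4428, 1310 and 738 CPM). Within each fibril state every co-culture thus lay below every library alone, and as few as 6 of the 15 genes were counted in a loaded co-culture. The oligodendrocyte list ran the other way, at 1143 to 3159 CPM over the 8 libraries of neurons alone and 4334 to 10407 CPM over the 8 co-cultures. The astrocyte list summed to 4708 to 13991 CPM in untreated neurons alone and 7139 to 17061 CPM in loaded neurons alone. In untreated co-cultures it summed to 2943 to 12995 CPM, and in loaded co-cultures to 2105 to 7665 CPM. In bulk RNA, fewer cells of a type and less RNA per cell cannot be told apart.

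Over the 16 libraries Cx3cl1 had the highest mean level of the list, 339 CPM, and Cd47 came next with 144 CPM. Sirpa (75.7 CPM), Tgfb2 (53.6 CPM), Csf1 (36.5 CPM), Cd200 (24.9 CPM) and Il34 (9.01 CPM) followed. Neighbours in this order were often not separated within a library. Cd47 exceeded Sirpa in 15 of 16 libraries and Cd200 exceeded Il34 in 15, whereas Cx3cl1 exceeded Cd47 in 11, Sirpa exceeded Tgfb2 in 12, Tgfb2 exceeded Csf1 in 10 and Csf1 exceeded Cd200 in 9. The order also changed with the group: Tgfb2 was the fourth by mean in untreated neurons alone, the third in loaded neurons alone and the sixth in loaded co-cultures, and no member but Tgfb1 had a lower mean than Il34 in any group.

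**Figure D1:**
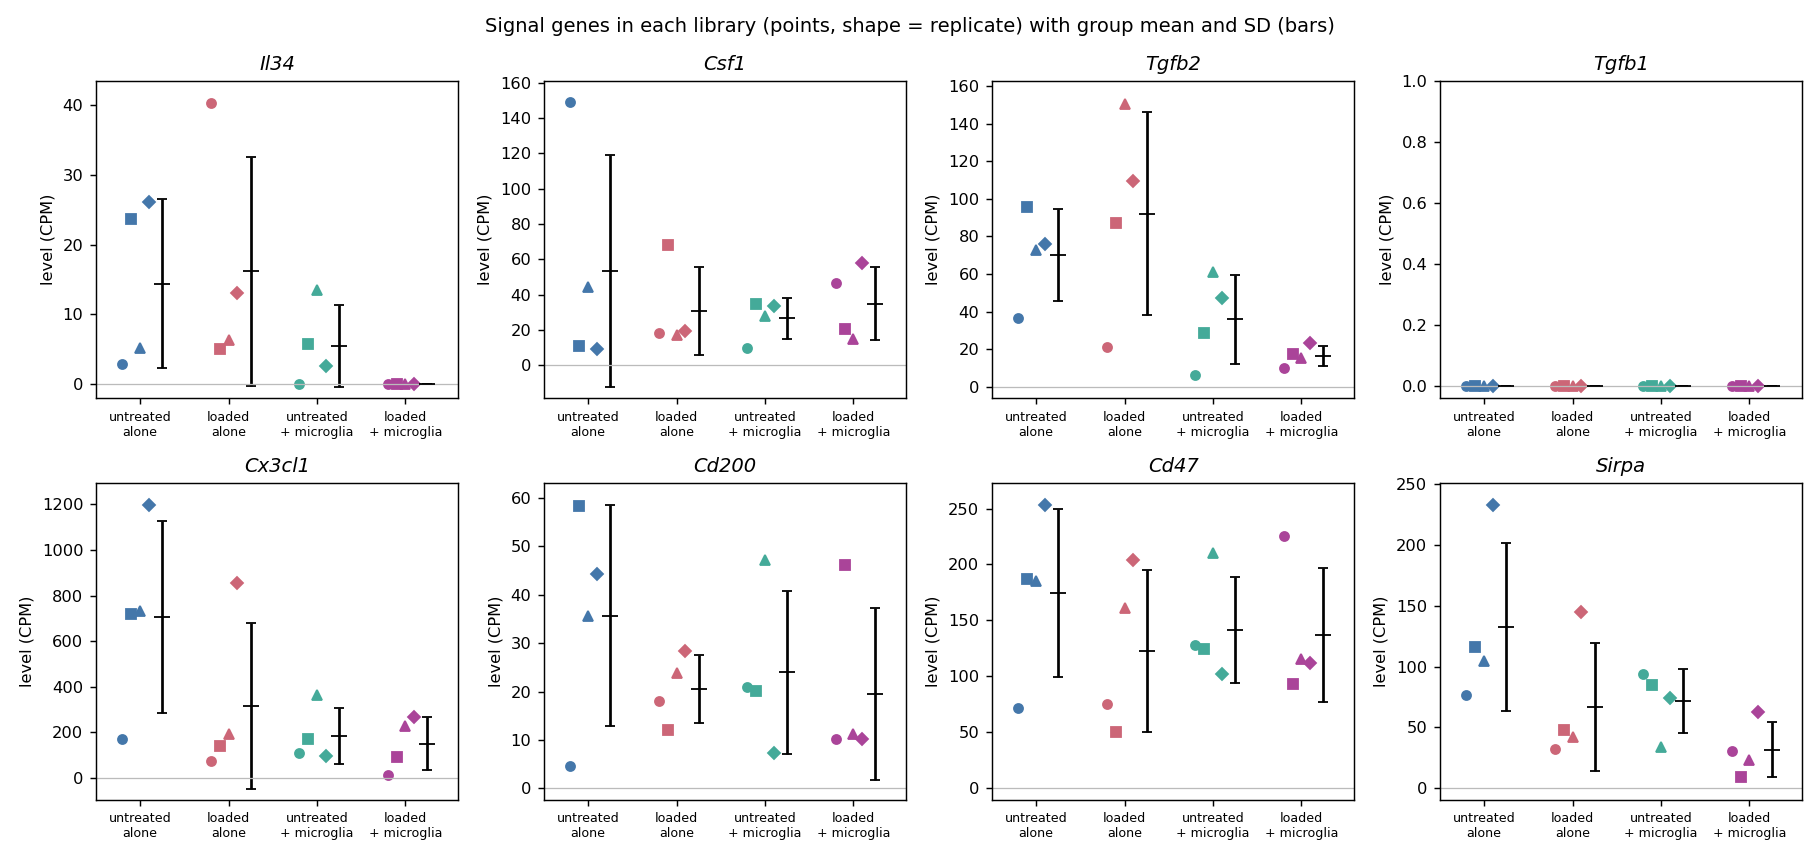
Levels of the 8 signal genes in CPM (linear axes) in each of the 16 libraries, with symbols for replicates 1 to 4 and bars for the mean and SD of each group of 4. Il34 lies at 0 in all 4 loaded co-cultures, Tgfb2 reaches at most 23.0 CPM there, and Tgfb1 is at 0 throughout.

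The microglia comparisons asked whether the signals differed between neurons kept alone and neurons cultured with microglia. Il34 and Tgfb2 were lower in co-culture when the microglia effect was averaged over untreated and loaded neurons, and these were the only members that passed the edgeR test in any comparison. With edgeR (quasi-likelihood F-test, Benjamini-Hochberg adjusted p under 0.05), 288 of 13139 genes (2.19%) were called in that average, 160 higher (1.22%) and 128 lower (0.974%), and the members made 2 of the lower ones. In the separate comparisons edgeR called 16 genes for microglia without fibrils (0.122%) and 15 for microglia with fibrils (0.114%), among them 0 members in each. At an unadjusted p under 0.05 the members numbered 0 without fibrils and 2 with fibrils, against 1196 and 1540 of the 13139 genes. DESeq2 called 0 and 2 members among 295 and 492 genes, and limma-voom 0 and 1 among 76 and 41. All 7 tested members had a negative averaged change, as had 6754 of the 13139 genes tested. The median was -0.98 on the log2 scale, against -0.03 over all genes tested. Setting Il34 at its counting limit could not move this median, because Il34 was the lowest of the 7 either way. The median without fibrils was -0.97 (7 of 7 lower) and with fibrils -1.07 (5 of 7 lower), against -0.02 and -0.03 over all genes. Of the 13139 genes, 6676 were lower without fibrils and 6727 with fibrils. The direction of Cd47 in the average was not stable: it was -0.07 as fitted and 0.10 when libraries were scaled by their totals. The averaged comparison draws on the same libraries as the separate ones, and the separate ones share none with each other.

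Il34, the neuronal ligand of CSF1R, spans chr8:110741829-110805924 on the minus strand (GRCm38, GENCODE M21). In untreated neurons alone its level was 2.81, 23.7, 5.14 and 26.1 CPM in replicates 1 to 4 (mean 14.4 ± 12.1, SD, n = 4). In loaded neurons alone it was 40.3, 5.03, 6.29 and 13.0 CPM (16.2 ± 16.5, n = 4). All 8 libraries without microglia thus held Il34 reads, over a wide range of levels within each group. In untreated co-cultures the level was 0, 5.78, 13.5 and 2.52 CPM (5.45 ± 5.86, n = 4), and in loaded co-cultures it was 0 in all 4. Of the 8 co-cultures, 5 had no Il34 count, and the 3 with counts were all untreated.

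A count of 0 allowed up to 3 counts per library, which is 0.252 to 0.473 CPM in the loaded co-cultures, and these limits cover counting error only. Against the mean of those limits (0.334 CPM), Il34 was at least 48.4-fold higher in loaded neurons alone and at least 16.3-fold higher in untreated co-cultures. Without fibrils, the mean was 2.65-fold higher alone than in co-culture, with overlapping groups. The averaged microglia effect passed the test (unadjusted p = 0.000546, adjusted p = 0.0350, edgeR), and with the empty group set at its limit the averaged log2 change was -3.50. The separate effects did not pass after adjustment (adjusted p = 0.977 without fibrils and 0.0917 with fibrils), nor did the interaction of both factors (unadjusted p = 0.0032, adjusted p = 1.00) or the effect of fibrils in co-culture (unadjusted p = 0.00115, adjusted p = 1.00). DESeq2 called Il34 in these last contrasts and with fibrils (adjusted p = 3.46e-06 with fibrils, 0.0174 for the interaction and 0.000367 in co-culture).

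The averaged call was close to the threshold. The adjusted p lay between 0.0512 and 0.0779 when any 1 of 10 libraries was left out, namely replicate 2 or 4 of untreated neurons alone, 1 or 4 of loaded neurons alone, 2 or 4 of untreated co-cultures, or any of the 4 loaded co-cultures. Without both libraries rich in microglial transcripts it was 0.0471. Il34 was the only member whose groups did not overlap in any comparison: every loaded co-culture lay below every library of loaded neurons alone, which held for 2.91% of all tested genes. Counts in all 4 libraries of loaded neurons alone and in none of the loaded co-cultures were found for 0.16% of tested genes, and counts in all 8 libraries of neurons alone and in none of the loaded co-cultures for 0.0457%. Both patterns are those of Il34 itself, and how often they occur depends on the level of a gene. These shares are therefore a description and no test. No member had every co-culture below every library of neurons alone (0.221% of tested genes), or every untreated co-culture below all untreated neurons alone (3.81%). Likewise, none had every loaded library below every untreated one, in co-culture (1.04%) or in neurons alone (2.22%). The antisense transcripts Gm15894 and Gm15895 overlap Il34 in the annotation, and reads from either strand cannot be told apart because the strand setting of the counting is not stated.

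Csf1, the other CSF1R ligand (chr3:107741048-107760469, minus strand), showed no change that passed. Its level in replicates 1 to 4 was 149, 10.9, 44.5 and 9.10 CPM in untreated neurons alone (53.4 ± 65.8, n = 4) and 18.6, 68.2, 17.1 and 19.3 CPM in loaded neurons alone (30.8 ± 24.97). In untreated co-cultures it was 9.76, 35.0, 28.0 and 33.9 CPM (26.7 ± 11.7), and in loaded co-cultures 46.7, 20.4, 15.1 and 57.9 CPM (35.0 ± 20.6). All 4 groups overlapped, and untreated replicate 1 alone set the high mean of its group. The averaged microglia change was -0.41 ± 0.54 (SE, adjusted p = 0.808), and the change without fibrils, -1.0013 ± 0.78, became 0.31 when that library was left out.

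The balance of the pair was read within each library as the log2 ratio of Il34 to Csf1, where the prior count of 2 sets the lowest values. The ratio was -1.52 ± 3.43 (SD, n = 4) in untreated neurons alone, -1.14 ± 2.00 in loaded neurons alone, -3.20 ± 1.91 in untreated co-cultures and -7.18 ± 0.92 in loaded co-cultures. Averaged over fibril state it was lower with microglia by a difference of -3.86 (exact two-sided permutation test over 4900 splits within fibril state, p = 0.0118, adjusted p = 0.0473 over 4 ratio tests). Its size depends on the prior count, because libraries at 0 enter it: with a prior count of 0.5 the difference was -5.10 (exact permutation test, adjusted p = 0.0261). The same difference between loaded and untreated neurons was -1.80 (exact permutation p = 0.162). The first call was lost when any 1 of 11 libraries was left out (adjusted p = 0.0580 to 0.108): replicate 2 or 4 of untreated neurons alone, 1, 3 or 4 of loaded neurons alone, 1, 2 or 4 of untreated co-cultures, or 1, 2 or 3 of loaded co-cultures. Without both libraries rich in microglial transcripts the difference was -3.36 with an adjusted p of 0.121.

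**Figure D2:**
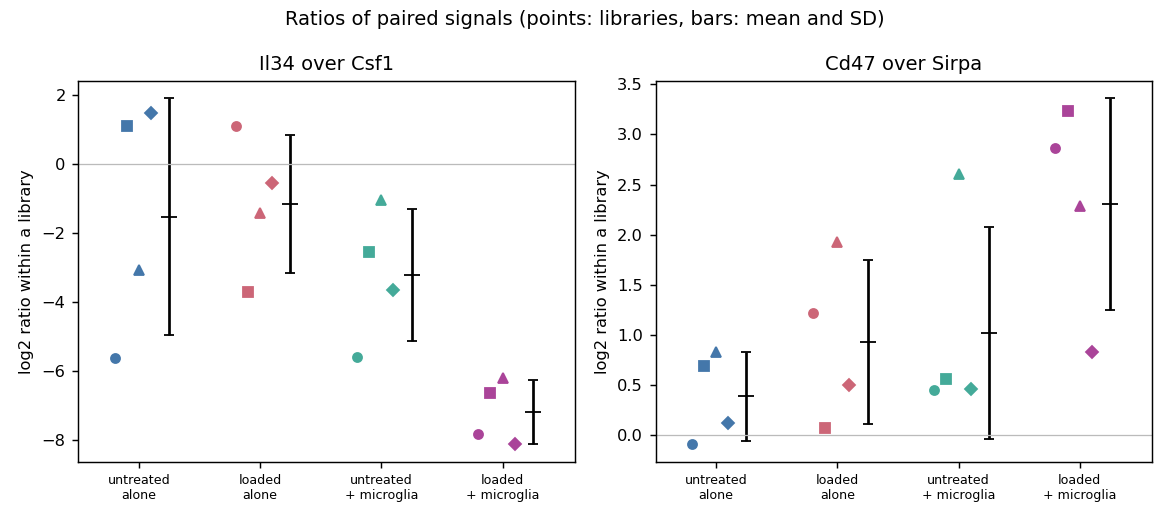
Log2 ratios of Il34 to Csf1 (left) and of Cd47 to Sirpa (right) within each of the 16 libraries, as points with symbols for the replicate, with the mean and SD of each group of 4 as bars. The Il34 to Csf1 ratio lies between -8.12 and -6.19 in the loaded co-cultures, below all libraries of the other groups, and the Cd47 to Sirpa ratio is highest on average in the same group.

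Tgfb2 encodes 1 of the transforming growth factor-beta ligands, of which Tgfb2 and Tgfb3 had counts, and Tgfb1, the isoform usually tied to microglial upkeep, was listed at 0 in all 16 (chr7:25687002-25705077, plus strand). The limit that 3 counts set for Tgfb1 was 0.220 to 0.473 CPM per library, and 667 genes of the table were at 0 throughout. Whether the counting could assign reads to Tgfb1 is not known, so the limit holds only if it could, and the 0 is not read here as a level. Tgfb2 spans chr1:186622792-186705989 on the minus strand. The 250 bases before its RefSeq start, and those before the start of Cx3cl1, are shown because both hold a TATA box hexamer. Both ligands were at their lowest mean in loaded co-cultures. So was Cd200 (19.5 CPM), whose matched promoter held no such hexamer. Il34 (0 CPM) and Sirpa (31.8 CPM), for which no promoter was matched, were at their lowest mean there too. A link between the hexamer and the level was not tested. RefSeq promoters (GRCm38.p6) were matched for 6 members. Capitals mark the TATA box hexamer in both sequences and the E-box, a site of basic helix-loop-helix factors, in the first.
Tgfb2, chr1:186705990-186706239, minus strand: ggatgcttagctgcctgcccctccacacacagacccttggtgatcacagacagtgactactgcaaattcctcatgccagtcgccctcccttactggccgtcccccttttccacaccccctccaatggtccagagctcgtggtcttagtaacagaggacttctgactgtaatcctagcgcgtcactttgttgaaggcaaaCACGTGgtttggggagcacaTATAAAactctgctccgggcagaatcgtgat
Cx3cl1, chr8:94771930-94772179, plus strand: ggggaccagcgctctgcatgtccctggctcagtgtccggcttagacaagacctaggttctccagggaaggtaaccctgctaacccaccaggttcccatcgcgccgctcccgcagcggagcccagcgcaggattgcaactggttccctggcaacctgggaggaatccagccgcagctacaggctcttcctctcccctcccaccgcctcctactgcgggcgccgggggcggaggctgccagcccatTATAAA
The motifs searched on both strands were the TATA box hexamer (TATAAA), the palindromic E-box (CACGTG) and the cyclic AMP response element (TGACGTCA), and no match shown overlaps another. In Tgfb2 the first base of the TATA hexamer lay 31 bases before the start and that of the E-box 51 bases before it. In Cx3cl1 the hexamer began 6 bases before a RefSeq start that lies inside the GENCODE gene. Of 32851 promoters cut the same way, 12.4% held the TATA hexamer, 6.02% the E-box and 1.55% the cyclic AMP element, so the matches describe these letters and no binding.

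Tgfb2 fell with microglia in the averaged comparison. Its level in replicates 1 to 4 was 36.8, 95.8, 72.6 and 75.8 CPM in untreated neurons alone (70.2 ± 24.5, SD, n = 4) and 21.3, 87.3, 151 and 109 CPM in loaded neurons alone (92.2 ± 54.0). With microglia it was 6.42, 28.8, 60.9 and 47.2 CPM in untreated neurons (35.8 ± 23.6) and 9.78, 17.3, 15.5 and 23.0 CPM in loaded neurons (16.4 ± 5.45). The loaded co-cultures were the tightest group, and 3 of the 4 libraries of loaded neurons alone stood above all of them; replicate 1, at 21.3 CPM, lay inside their range.

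Averaged over fibril state, the fitted Tgfb2 level fell with microglia, with a log2 change of -1.73 ± 0.43 (SE, unadjusted p = 0.000513, adjusted p = 0.0335, edgeR), a 3.32-fold difference. The change was -0.97 ± 0.59 without fibrils (adjusted p = 0.732) and -2.49 ± 0.62 with fibrils (adjusted p = 0.106 with edgeR, 0.00471 with DESeq2 and 0.285 with limma-voom), and the difference between these effects, -1.52 ± 0.84, did not pass (unadjusted p = 0.0829, adjusted p = 1.00). Fibrils in neurons alone gave 0.39 ± 0.59 and fibrils in co-culture -1.13 ± 0.60. The averaged call was lost when any 1 of 9 libraries was left out (adjusted p = 0.0536 to 0.0793): replicate 2, 3 or 4 of untreated neurons alone, 3 or 4 of loaded neurons alone, 2 of untreated co-cultures, or 1, 2 or 3 of loaded co-cultures. It was also lost with limma-voom (adjusted p = 0.0567), with library totals (-1.53, adjusted p = 0.0545) and without both libraries rich in microglial transcripts (-1.46, adjusted p = 0.0708), while DESeq2 gave an adjusted p of 0.00326. An antisense transcript and a small nucleolar RNA gene overlap Tgfb2 on the other strand, with the same limit as for Il34.

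Cx3cl1, the gene of fractalkine (chr8:94772009-94782427, plus strand), had the largest spread in CPM. Its level in replicates 1 to 4 was 172, 718, 732 and 1199 CPM in untreated neurons alone (705 ± 420, SD, n = 4) and 71.9, 141, 193 and 856 CPM in loaded neurons alone (316 ± 364). In co-culture it was 111, 171, 362 and 94.3 CPM in untreated neurons (185 ± 123) and 14.4, 91.2, 226 and 267 CPM in loaded neurons (149.8 ± 118). The groups overlapped: replicate 1 of untreated neurons alone lay among the co-cultures, and replicate 4 of loaded neurons alone lay above the other 3 of its group. The averaged microglia change of -1.504 ± 0.64 (SE, unadjusted p = 0.0340) did not pass after adjustment (adjusted p = 0.259). The change was -1.93 ± 0.91 without fibrils and -1.07 ± 0.89 with fibrils, and fibrils in neurons alone gave -1.16 ± 0.89, none of which passed (adjusted p = 0.563, 0.777 and 1.00).

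**Figure D3:**
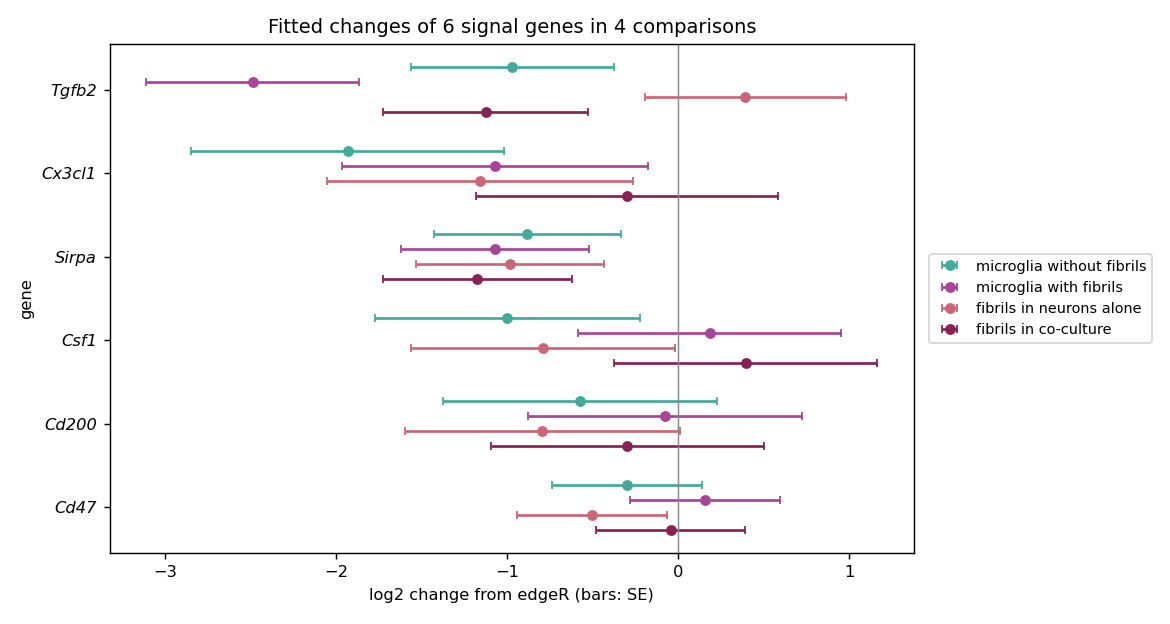
Fitted log2 changes of 6 signal genes (points) with their SE (bars) in 4 comparisons: microglia added to untreated or to loaded neurons, and fibrils in neurons alone or in co-culture. Il34 is left out because its loaded co-cultures are all at 0. The Tgfb2 change with microglia in loaded neurons, -2.49, lies farthest from 0, and no change shown passed the edgeR test after adjustment; with DESeq2 that Tgfb2 change did (adjusted p = 0.00471).

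Cd200, whose protein restrains myeloid cells (chr16:45382135-45409053, minus strand), showed no change that passed. Its level was 4.57 to 58.3 CPM in untreated neurons alone (35.7 ± 22.8, SD, n = 4), 12.1 to 28.3 CPM in loaded neurons alone (20.5 ± 7.05), 7.33 to 47.3 CPM in untreated co-cultures (23.9 ± 16.8) and 10.2 to 46.1 CPM in loaded co-cultures (19.5 ± 17.8). Every group overlapped every other, and the averaged microglia change was -0.33 ± 0.57 (SE, adjusted p = 0.874).

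Cd47, the signal against engulfment (chr16:49800533-49915010, plus strand), had group means between 123 and 174 CPM. In replicates 1 to 4 it was 71.9, 187, 185 and 253 CPM in untreated neurons alone (174 ± 75.1, SD, n = 4) and 75.2, 50.3, 161 and 204 CPM in loaded neurons alone (123 ± 72.1). With microglia it was 128, 125, 210 and 102 CPM in untreated neurons (141 ± 47.2) and 226, 93.6, 116 and 112 CPM in loaded neurons (137 ± 59.9). No group stood apart. Fibrils in neurons alone gave -0.51 ± 0.44 and fibrils in co-culture -0.05 ± 0.44 (adjusted p = 1.00 for both).

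Sirpa, which encodes the CD47 receptor (chr2:129592835-129632228, plus strand), had the lowest p of the list for fibrils among the members counted in every library. Its level was 76.8, 116, 104 and 232 CPM in untreated neurons alone (132 ± 68.6, SD, n = 4) and 32.2, 47.9, 42.4 and 145 CPM in loaded neurons alone (66.8 ± 52.4). In untreated co-cultures it was 93.9, 84.7, 34.3 and 74.3 CPM (71.8 ± 26.3), and in loaded co-cultures 30.8, 9.75, 23.7 and 63.0 CPM (31.8 ± 22.5). In neurons alone, and again in co-culture, 3 of the 4 loaded libraries lay below every untreated one, and the remaining loaded library overlapped the untreated group. Averaged over microglia, the fibril change was -1.08 ± 0.39 (SE, unadjusted p = 0.0107, adjusted p = 0.673), and averaged over fibrils, the microglia change was -0.98 ± 0.39 (unadjusted p = 0.0192, adjusted p = 0.201). Neither passed after adjustment.

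The log2 ratio of Cd47 to Sirpa was 0.39 ± 0.44 (SD, n = 4) in untreated neurons alone, 0.93 ± 0.82 in loaded neurons alone, 1.02 ± 1.06 in untreated co-cultures and 2.30 ± 1.06 in loaded co-cultures. The averaged microglia difference was 1.00 (exact two-sided permutation test, p = 0.0384, adjusted p = 0.0735) and the averaged fibril difference 0.91 (p = 0.0551, adjusted p = 0.0735). Neither passed after adjustment over the 4 ratio tests.

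The fibril comparisons asked whether taking up α-synuclein fibrils changed the signals, and no member passed. EdgeR called 0 of 13139 genes (0.0%) in neurons alone, in co-culture, in their average and in the interaction, with 909, 483, 870 and 529 genes at an unadjusted p under 0.05; limma-voom called 0 in each and DESeq2 173, 130, 257 and 187. Of the members, 0, 2, 2 and 1 were at an unadjusted p under 0.05; limma-voom called none of them, and DESeq2 called 0, 1, 1 and 1, each time Il34. In neurons alone 5 of 7 tested members were lower with fibrils (median log2 change -0.79, against -0.06 over all genes), and in co-culture 6 of 7 (-0.30, against -0.04). Of the 13139 genes, 6883 were lower with fibrils in neurons alone and 6904 in co-culture. These comparisons reuse the libraries of the microglia comparisons, so the values are not independent of them.

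The level of neuronal transcripts in a library moved with several members. Over the 16 libraries, Pearson's r between a member's log2 CPM and the mean log2 CPM of the 22 neuronal genes was 0.88 for Cx3cl1, 0.74 for Tgfb2, 0.69 for Il34 and 0.61 for Sirpa. It was 0.45 for Cd47, 0.44 for Cd200 and -0.16 for Csf1. With the 15 excitatory neuron genes r was 0.85 for Cx3cl1, 0.77 for Tgfb2, 0.70 for Il34 and 0.59 for Sirpa. With the oligodendrocyte list r was -0.82 for Il34, -0.80 for Tgfb2, -0.76 for Cx3cl1 and -0.67 for Sirpa. With the astrocyte list r was 0.46 for Csf1, 0.45 for Tgfb2, 0.43 for Il34 and 0.19 for Sirpa. It was -0.06 for Cx3cl1, -0.47 for Cd200 and -0.57 for Cd47. These values describe libraries that share groups and depth, and they carry no test. The neuronal mean in log2 CPM was 7.71 to 8.94 in untreated neurons alone, 6.39 to 8.90 in loaded neurons alone, 5.34 to 7.60 in untreated co-cultures and 5.34 to 7.14 in loaded co-cultures. The excitatory mean in log2 CPM was 5.86 to 6.85, 3.68 to 6.71, 1.09 to 5.28 and 0.28 to 5.03 in the same order. The part of neuronal, excitatory, oligodendrocyte and astrocyte content in the Il34 and Tgfb2 results was not tested.

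**Figure D4:**
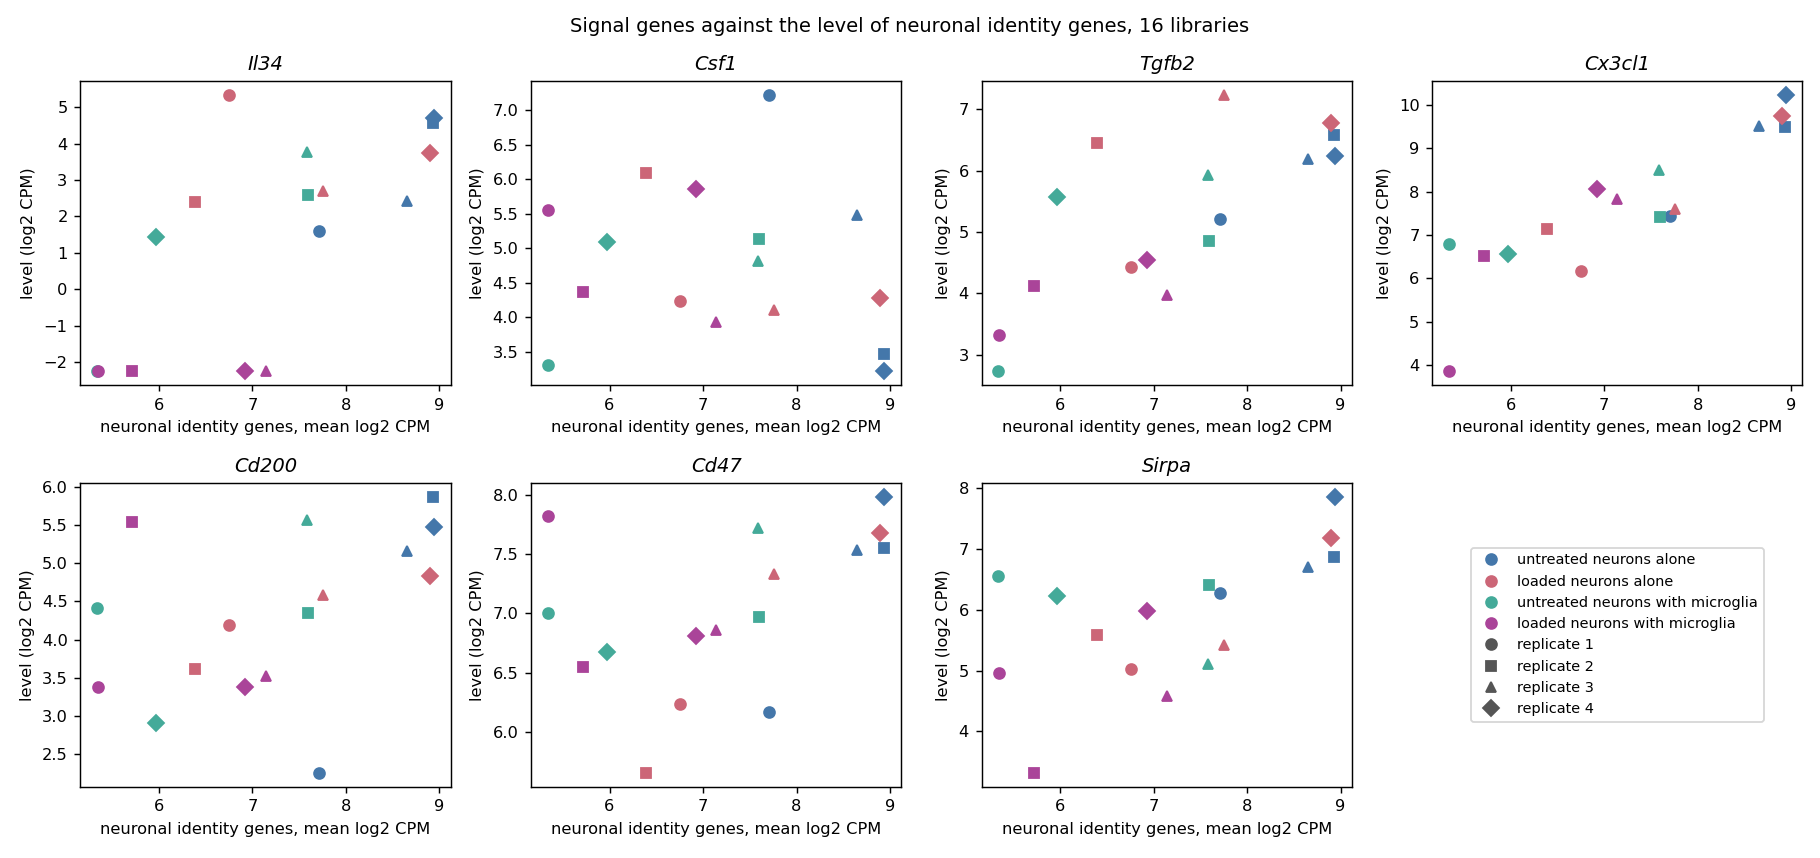
Level of each of 7 signal genes (log2 CPM) against the mean log2 CPM of 22 neuronal identity genes in the same library, 16 libraries, with colours for the groups and symbols for the replicates. Cx3cl1 follows the neuronal genes most closely (r = 0.88), Csf1 does not (r = -0.16), and the loaded co-cultures lie on the floor for Il34.

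By Pearson's r of log2 CPM over the 16 libraries, each member was set beside the 3 tested genes most like it among those with a mean log2 CPM above 4. Cx3cl1 had the closest companions, Ptprn2 (0.960), Bend6 (0.945) and Lsm11 (0.941), with Ptprn2 at 172 CPM in untreated neurons alone and 49.1, 23.3 and 33.8 CPM in loaded neurons alone, untreated co-cultures and loaded co-cultures. For Tgfb2 they were Adora1 (0.894), an adenosine receptor gene, Tuba4a (0.863), a tubulin gene, and Syt7 (0.860), a synaptotagmin gene. Adora1 averaged 329, 309, 155 and 118 CPM over the groups in the same order, and Tuba4a 318, 372, 94.2 and 63.8 CPM. For Il34 they were Vmp1 (0.868), Nptn (0.863) and Pdhb (0.849), with means of 98.1, 108 and 55.0 CPM in loaded co-cultures. The limit of a mean log2 CPM above 4 leaves out genes as low as Il34 and so favours genes counted in every group. For Cd47 they were Arhgdig (0.922), Basp1 (0.889) and Hectd4 (0.885), and for Sirpa Wdr13 (0.878), Ctnnd2 (0.877) and Bcl11a (0.874). Cd200 and Csf1 had looser ones, led by Gnl3l (0.773) and Ttc28 (0.809). Between the members, r was 0.74 for Il34 with Tgfb2 and 0.66 for Tgfb2 with Cx3cl1, and -0.66 for Csf1 with Cd200.

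On the receiving side, Csf1r and Cx3cr1 belong to the microglial marker list whose sum set 2 libraries apart as rich in microglial RNA, so their high levels there follow from that choice and are given as a description. Csf1r, the receptor of IL-34 and CSF1, was at 64.4 CPM in untreated co-culture 1 and 287 CPM in loaded co-culture 1, and at most 6.94 CPM in the other 14 libraries. Cx3cr1, the fractalkine receptor, was at 35.9 and 154 CPM in these and at most 10.9 CPM elsewhere. Cd200r1, the CD200 receptor gene, was listed at 0 in all 16, with the same doubt as for Tgfb1 on whether reads could be assigned to it. The averaged microglia change passed for neither tested gene (adjusted p = 0.377 for Csf1r and 0.558 for Cx3cr1).

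Ptprz1, which encodes another receptor reported for IL-34 and is found on neural precursors and glia, averaged 643 ± 689, 795 ± 428, 1328 ± 514 and 1547 ± 325 CPM (SD, n = 4 each) in untreated neurons alone, loaded neurons alone, untreated co-cultures and loaded co-cultures. Its averaged microglia change, 1.00 ± 0.39, did not pass (unadjusted p = 0.0192, adjusted p = 0.201). Among the receptors of transforming growth factor-beta, Tgfbr1 averaged 7.66, 9.09, 19.7 and 11.997 CPM over the groups in that order, with an averaged change of 0.88 ± 0.83 (SE, adjusted p = 0.677). Tgfbr2 was low everywhere, with counts in 6 of the 8 libraries of neurons alone (at most 7.84 CPM) and in none of the 8 co-cultures. Only libraries of neurons alone carried Tgfbr2 past the filter, so its averaged difference is given as a description. EdgeR gave that difference an unadjusted p = 0.0025 and an adjusted p = 0.0756, while DESeq2 called it. Tgfbr3 had counts in 5 libraries, at most 11.5 CPM.

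The wider pathway was followed in 76 genes of 4 lists: the 7 receptors, the handling and signalling of transforming growth factor-beta, the processing and partners of the other signals, and other signals to microglia. Of these, 74 were in the table and 66 were tested, and edgeR called 0 in every comparison. In the averaged microglia comparison 41 were higher and 25 lower, with a median log2 change of 0.21. The higher ones included Csf1r (4.43), Cx3cr1 (2.82) and Tyrobp (4.81), which belong to the microglial marker list. Over all genes 6385 were higher and 6754 lower, with a median of -0.03. At an unadjusted p under 0.05 were 12 of the 66, against 2169 of the 13139 genes; limma-voom called 1 (Pros1), against 652 of all genes, and DESeq2 7, against 1094. The microglia comparisons without and with fibrils had 6 and 10 genes at an unadjusted p under 0.05, against 1196 and 1540 of all genes. DESeq2 called 1 and 6, against 295 and 492, and limma-voom 0 in each, against 76 and 41. The fibril comparisons had 7 in neurons alone, 3 in co-culture and 3 in their average, and the interaction had 3. Over all genes these were 909, 483, 870 and 529 in that order. DESeq2 called 4, 1, 5 and 5, against 173, 130, 257 and 187, and limma-voom none. The 4 in neurons alone were Fyb, Il33, Inpp5d and Qpct, all at 0 in every library of loaded neurons alone. DESeq2 called the same genes in the fibril average, in the interaction, and for microglia with fibrils and averaged.

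Among the 20 tested genes of the transforming growth factor-beta list, 13 were higher and 7 lower in the averaged microglia comparison (median 0.08), with 2 at an unadjusted p under 0.05. These were chosen for naming after their values were seen: Smad4, the shared partner of receptor-activated SMADs, with group means of 108, 90.9, 152 and 159 CPM (0.65 ± 0.24, adjusted p = 0.167), and Smurf2, a ubiquitin ligase that acts on the pathway, with 14.5, 23.7, 46.8 and 32.2 CPM (1.07 ± 0.50, adjusted p = 0.293). Tgfb3, the remaining ligand, averaged 4.96, 12.3, 3.09 and 4.16 CPM (-1.12 ± 1.39, adjusted p = 0.789). Of the 13 tested genes that process or partner the other signals, 11 were higher and 2 lower (median 0.71), with 4 at an unadjusted p under 0.05. These 4 were Qpct, Inpp5d, Tyrobp and Fyb. Tyrobp belongs to the microglial marker list whose sum set 2 libraries apart, so its high level there follows from that choice. It was at 69.8 CPM in untreated co-culture 1, 144 CPM in loaded co-culture 1 and at most 4.95 CPM in the other 14 libraries. The list of processing genes and partners also holds the sheddases of fractalkine, Adam10 and Adam17, neither of which passed. Adam10 had group means of 40.7, 56.5, 60.0 and 42.1 CPM (0.07 ± 0.34). Adam17 had 25.7, 34.3, 46.8 and 53.2 CPM (0.75 ± 0.40, adjusted p = 0.366). Of the 27 tested other signals 13 were higher and 14 lower (median -0.14). Ccl3, a chemokine gene that microglia express, was also chosen after its values were seen. It was at 0 in all 8 libraries of neurons alone. Its mean was 2.40 ± 3.33 CPM in untreated and 14.3 ± 24.6 CPM in loaded co-cultures (SD, n = 4 each). Each SD exceeded its mean, and only co-cultures carried Ccl3 past the filter, so the difference is given as a description. In the averaged comparison edgeR gave an unadjusted p = 0.0025 and an adjusted p = 0.0758. DESeq2 called Ccl3 without fibrils, with fibrils and averaged.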

How the data were processed

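Messenger RNA of 16 neuron libraries, 4 in each of 4 groups taken from the treatment label, was read with the QuantSeq 3′ forward kit (per the labels). The submitters' processing notes name STAR, Partek, DESeq2 and the build mm10, without versions. How reads were counted, and whether by strand, is not given in the sources used here. Deposited tables were the authors' counts per gene symbol, not normalized, and a table of normalized values rounded to whole numbers, used here as a score; for 99.94% of entries a factor common to the library turned the count into the score to within 0.6, and no test used it. Libraries of a group were numbered in accession order.

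Counts were fitted in R 4.3.3 with edgeR 4.0.16: filterByExpr (minimum count 10, minimum total 15) kept 13139 genes, libraries were scaled by TMM, and one robust quasi-likelihood fit of the 16 libraries had a coefficient for each group. The contrasts compared microglia without and with fibrils, fibrils in neurons alone and in co-culture, the interaction, and the averaged microglia and fibril effects; calls are genes under 0.05 after Benjamini-Hochberg adjustment over all genes tested. CPM and log2 CPM (prior count 2) used TMM scaling. Ratios were compared by exact two-sided permutation, where 4900 splits allow no p below 0.000408. DESeq2 1.42.0 and limma-voom (limma 3.58.1) were alternatives. The edgeR test of the averaged microglia contrast was run on 5 simulated data sets with 200 changed genes each. It found 2.48% of 2-fold, 34.9% of 4-fold, 60.9% of 8-fold and 63.8% of 16-fold changes, and 5.68% of its calls were false. A change that did not pass is therefore not read as no change. Tables were joined with Python 3.11.15 and pandas 2.3.3. The members and lists were chosen with earlier results of these data known, as were the averaged contrasts. Named genes were the members, the receptors, called pathway genes (there were none) and the 3 most like genes per member; other pathway genes were named after their values were seen. Positions come from GENCODE M21.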

Additional observations from a re-analysis of the deposited data

Results flagged for a closer look

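Among 35 sets of 4 values (7 members and 2 ratios, by group), 6 held a library far from the other 3. Chance flags about 1 in 20 sets where values are normally distributed. Whether the CPM values have that shape was not tested, so the number of flags is a description. In all 6 the flagged library lay above the other 3. In loaded neurons alone, Csf1 was at 68.2 CPM in replicate 2 (17.1 to 19.3 CPM in the others), while Cx3cl1 was at 856 CPM in replicate 4 (71.9 to 193) and Sirpa at 145 CPM in the same library (32.2 to 47.9). In loaded co-cultures, Cd200 was at 46.1 CPM in replicate 2 (10.2 to 11.3) and Cd47 at 226 CPM in replicate 1 (93.6 to 116), the library rich in microglial transcripts. The log2 ratio of Cd47 to Sirpa was 2.61 in untreated co-culture 3 and 0.45 to 0.56 in the others.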

How the results depend on the processing

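Counts of genes called moved more than the members' directions. Scaling by library totals gave 50 and 31 genes for microglia without and with fibrils, and no filter gave 26 and 26. DESeq2 gave 295 and 492, then 173 for fibrils in neurons alone, 130 in co-culture, 187 for the interaction, 1094 for averaged microglia and 257 for averaged fibrils; limma-voom gave 76, 41 and 652 for microglia without, with and averaged. Fits of only the groups compared gave 1 and 0, and leaving out both libraries rich in microglial transcripts gave 0 without fibrils and 152 on average. Members called were 2 with fibrils and 1 each for fibrils in co-culture, the interaction and averaged fibrils with DESeq2, 1 with fibrils with limma-voom, and in the averaged microglia comparison 1 with limma-voom, library totals, the replicate block, or without the microglia-rich libraries. Those libraries left out, the Il34 to Csf1 difference was -3.36.

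Leaving out 1 library at a time, genes called ranged from 0 to 39 and 1 to 27 for microglia without and with fibrils, 0 to 7 for fibrils in neurons alone, 158 to 333 for averaged microglia and 0 to 1 for averaged fibrils, and members called for averaged microglia from 0 to 2. Ratio differences ranged from -4.55 to -3.36 (Il34 to Csf1, microglia), and for Cd47 to Sirpa from 0.74 to 1.25 (microglia) and 0.75 to 1.18 (fibrils), with adjusted p of 0.0370 to 0.152.

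Small member changes turned sign. With fibrils, the microglia change of Cd200 was 0.14 with library totals and 0.13 without the microglia-rich libraries, and that of Cd47 -0.20 without them. Csf1 gave 0.11 for fibrils in neurons alone and 0.21 for averaged fibrils with limma-voom, and -0.062 for fibrils in co-culture without the microglia-rich libraries. Averaged over fibrils, Cd47 gave 0.10 with library totals and 0.012 with the replicate block. Ranges over left-out libraries that crossed 0 were, for microglia without fibrils, Csf1 -1.34 to 0.31; with fibrils, Cd200 -0.95 to 0.14, Cd47 -0.20 to 0.52, Csf1 -0.17 to 0.93 and Cx3cl1 -1.51 to 0.15; averaged, Cd47 -0.25 to 0.11 and Csf1 -0.59 to 0.25. For fibrils in neurons alone they were Csf1 -1.54 to 0.52 and Il34 -0.81 to 0.61, in co-culture Cd200 -1.18 to 0.27, Cd47 -0.41 to 0.21 and Cx3cl1 -0.74 to 0.26, and averaged Csf1 -0.57 to 0.46. For the interaction they were Cd200 -0.38 to 1.06, Csf1 -0.13 to 1.93 and Sirpa -0.76 to 0.52. The cause was not tested.

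Replicate numbers follow runs of neighbouring library codes, and the sources do not say whether a run shares a culture or batch, so they were not used to pair libraries. Over 24 same-number pairs the correlation of deviations from group means was -0.11 to 0.22, above 0.1 in 4. Over the other pairs it was -0.23 to 0.16, and 9 of 16 libraries correlated best with one of their own number. With the replicate block edgeR called 38 and 42 genes for microglia without and with fibrils. The averaged Il34 call was lost with the block (edgeR adjusted p = 0.0714), while Tgfb2 had an adjusted p of 0.00684. The call of the Il34 to Csf1 difference of -3.86 was also lost (exact permutation test, adjusted p = 0.0625). The Tgfb2 to Tgfb1 ratio and a permutation test of Tgfb1 were not run, since Tgfb1 was 0 throughout. At 0.220 to 0.473 CPM for 3 counts, depth limits what can be said of Il34 in co-culture.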
